A study of Homo sapiens with 6 samples.

Results

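The transcripts described here encode the subunits of AP-1 from the FOS family (FOS, FOSB, FOSL1 and FOSL2) and the JUN family (JUN, JUNB and JUND), together with ATF3, a stress-induced partner of JUN proteins. All probe sets that the array's annotation pairs with 1 of these 8 gene symbols alone were taken, which gave 20 of the 54613 probe sets tested. FOSL2 had 5 of them, JUN 4, JUND 4, ATF3 3, and FOS, FOSB, FOSL1 and JUNB 1 each. The siTIG1 arrays (n = 3) came from SUM149 cells, an established line of human inflammatory breast cancer, given an ON-TARGET Plus siRNA pool against TIG1 (RARRES1). The siControl arrays (n = 3) came from SUM149 cells given a siGENOME non-targeting pool. Both groups were transfected transiently with oligofectamine at 200 nmol/L and grown with serum, insulin and hydrocortisone. The groups therefore differ in the target and in the siRNA product line, which cannot be told apart. Whether the 3 replicates of a group were grown separately is not given in the labels, and the tests therefore weigh differences against a spread that may be technical.

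AP-1 is a dimer held together by a leucine zipper, and its adjoining basic regions bind short DNA elements such as TGACTCA and TGACGTCA. JUN proteins pair with each other or with a FOS protein, while FOS proteins need a JUN partner, so the set of subunits present shapes which dimers can form. FOS, FOSB, JUN and JUNB are classic immediate-early genes, switched on briefly by growth factors and stress, whereas FOSL1 (the protein FRA-1) is a later gene kept up by lasting ERK signalling and is known for its high level in basal-like breast cancer cells.

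Signals are the authors' log2 values, normalized between arrays, so a difference of 1 is 2-fold. Epithelial and basal markers ran from the 62.6th (KRT14) to the 99.6th (EPCAM) percentile of all probe sets, with CDH1 at the 98.8th. Markers of leukocytes, fibroblasts and endothelial cells ran from the 12.7th (CDH5) to the 82.6th (COL1A1), with PTPRC at the 25.3rd. The ranges of these lists therefore overlapped. The 3 TIG1 probe sets did not pass the test (limma adjusted p of 0.20 to 0.27). On the first of them TIG1 read 10.72, 10.03 and 9.96 on siTIG1 replicates 1 to 3, against 11.04, 10.92 and 12.58 on siControl replicates 1 to 3. The array labelled siTIG1 replicate 1 lay nearest to the controls, and on 1 of the 3 TIG1 probe sets it read 12.69, against 12.65 and 12.61 on siControl replicates 1 and 2. The siControl replicate 3 array stood apart from its group, with correlations of 0.985 with each of the other controls over all probe sets, against 0.998 between those controls. Its 3' minus 5' signal of the ACTB control probe sets was also the highest of the 6 arrays, at 3.21, against 2.14 to 2.34 on the siTIG1 arrays and 2.62 to 2.73 on the other controls. For GAPDH the same value was 0.57 on siControl replicate 3, against 0.46 to 0.47 on the siTIG1 arrays and 0.46 to 0.48 on the other controls. The part of RNA quality in the results below was not tested. For each member gene the main difference is given with and without siControl replicate 3. Calls of members that were lost without the labelled siTIG1 replicate 1 array are also stated. Differences of several list genes are given with all 6 arrays only.

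In the siTIG1 group the FOS family changed in opposite directions. FOS rose 3.39-fold, FOSL2 rose 2.24-fold on its brightest probe set, and FOSB rose 1.68-fold, while FOSL1 fell to a level 3.97-fold lower. JUN rose 1.80-fold on 1 of its 4 probe sets. No probe set of JUNB, JUND or ATF3 passed the test with all 6 arrays. In all, 6 of the 20 probe sets passed as higher, where 2.14% of all probe sets did, and 1 passed as lower, where 2.87% did (limma, adjusted over 54613 probe sets, threshold 0.05). Of these 6, 3 belonged to FOSL2. With 1 probe set per gene, 4 of the 8 genes passed as higher and 1 as lower. Over all genes 3.16% passed as higher and 4.14% as lower. The groups did not overlap for 9 member probe sets that were higher and 1 that was lower, against a background of 14.8% and 13.0% of all probe sets. The median difference of the 20 probe sets was 0.20, against 0.01 for all probe sets.

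The 4 promoters below belong to the genes with a probe set that passed as higher in the siTIG1 group, and are shown for that reason. Each window runs from 250 bases before to 50 bases after the gene's start, is written 5' to 3' along the gene, and comes from RefSeq with build GRCh38.p14. Of the 8 member genes 7 had a window in that table, and FOSL1 had none. Capitals mark matches, on either strand, to the AP-1 element TGACTCA, the cAMP response element TGACGTCA, its shortened form TGACGT, the variant TGACATCA and the CArG box that binds SRF.
FOS, chr14:75278578-75278877, plus strand: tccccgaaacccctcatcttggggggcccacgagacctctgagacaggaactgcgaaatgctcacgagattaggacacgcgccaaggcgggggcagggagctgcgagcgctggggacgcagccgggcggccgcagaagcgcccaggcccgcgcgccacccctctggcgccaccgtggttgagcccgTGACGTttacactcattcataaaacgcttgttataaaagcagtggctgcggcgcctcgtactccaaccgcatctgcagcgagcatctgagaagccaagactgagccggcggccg
FOSB, chr19:45467746-45468045, plus strand: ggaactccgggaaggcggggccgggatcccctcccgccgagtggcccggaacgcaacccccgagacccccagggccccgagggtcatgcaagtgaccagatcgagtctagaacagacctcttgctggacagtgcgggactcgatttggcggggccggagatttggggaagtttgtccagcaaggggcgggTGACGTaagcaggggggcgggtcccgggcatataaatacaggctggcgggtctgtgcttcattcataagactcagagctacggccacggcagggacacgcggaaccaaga
FOSL2, chr2:28392608-28392907, plus strand: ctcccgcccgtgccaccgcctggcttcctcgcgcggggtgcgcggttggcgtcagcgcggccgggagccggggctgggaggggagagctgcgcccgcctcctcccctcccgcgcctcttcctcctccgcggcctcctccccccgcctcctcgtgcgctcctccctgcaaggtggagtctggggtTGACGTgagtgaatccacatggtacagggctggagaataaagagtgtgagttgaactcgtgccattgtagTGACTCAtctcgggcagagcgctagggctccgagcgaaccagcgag
JUN, chr1:58783998-58784297, minus strand: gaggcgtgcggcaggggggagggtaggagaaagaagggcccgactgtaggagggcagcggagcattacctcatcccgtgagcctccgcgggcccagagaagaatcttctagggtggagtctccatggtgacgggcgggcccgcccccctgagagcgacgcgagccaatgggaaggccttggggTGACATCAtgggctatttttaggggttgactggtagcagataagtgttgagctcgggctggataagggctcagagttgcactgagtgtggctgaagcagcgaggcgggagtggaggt
In the FOS window TGACGT began 64 bases before the start, in FOSB 60 bases before it and in FOSL2 66 bases before it. In FOSL2, TGACTCA also lay just after the start, with its first letter at base 5 of the gene. The JUN window held TGACATCA, 67 bases before the start. Of 35116 windows of this length, 7.98% held TGACGT (those with the full TGACGTCA included), 4.95% TGACTCA, 2.61% TGACATCA, 1.85% TGACGTCA and 1.29% a CArG box. Among members without a called probe set, the JUND window held TGACGTCA and, 87 bases before the start on the other strand, a separate TGACGT, 1 of the 2 ATF3 windows held TGACATCA, and the JUNB window held none of the 5 motifs. A match describes these letters only, and sites outside the windows, such as any CArG box farther from the start, were not searched for.

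FOS, the founding member of the family and an immediate-early gene, was measured by probe set 209189_at. Its log2 signal was 9.78, 9.90 and 9.88 on siTIG1 replicates 1 to 3, against 8.34, 7.87 and 8.06 on siControl replicates 1 to 3. Every siTIG1 array lay above every control, by more than the spread of either group. The mean was 9.85 ± 0.06 in the siTIG1 group and 8.09 ± 0.24 in the siControl group (SD, n = 3 each), 1.76 ± 0.12 apart on the log2 scale (SE, limma adjusted p = 0.0023). Only 46 of the 54613 probe sets had a larger positive difference. siControl replicate 3 lay between the other controls for FOS, and the difference without it was 1.74 (limma adjusted p = 3.2e-05). The call held with each of the 6 arrays left out in turn (highest limma adjusted p of 0.031).

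FOSL1, which encodes FRA-1, went the other way on probe set 204420_at. Its signal was 10.06, 9.77 and 9.77 on the siTIG1 arrays, against 11.55, 11.46 and 12.56 on the siControl arrays. The groups did not overlap, and siControl replicate 3 was the highest array, 1.05 above the mean of the other controls. Means were 9.87 ± 0.17 in the siTIG1 group and 11.86 ± 0.61 in the siControl group (SD, n = 3 each), a difference of -1.99 ± 0.29 (SE, limma adjusted p = 0.017). Only 5 of the 54613 probe sets had a more negative difference. Without siControl replicate 3 the difference was -1.64 ± 0.09 (SE, limma adjusted p = 1.4e-05), a fall of 3.11-fold. Leaving out siTIG1 replicate 1, 2 or 3 ended the call (limma adjusted p = 0.068, 0.0995 and 0.098), with differences of -2.08, -1.94 and -1.94.

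FOSB, another immediate-early gene, read 8.95, 9.35 and 9.25 on the siTIG1 arrays, against 8.53, 8.29 and 8.49 on the siControl arrays. Its probe set 202768_at rose by 0.75 ± 0.12 (SE, limma adjusted p = 0.021). The groups did not overlap, and siTIG1 replicate 1 was the array nearest to the controls. The call was kept without siTIG1 replicate 1 (0.87, limma adjusted p = 0.028) and without siControl replicate 3 (0.78, limma adjusted p = 0.0018). It was lost without any other single array (limma adjusted p of 0.059 to 0.12).

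FOSL2, which encodes FRA-2, was measured by 5 probe sets that differed in size of change. The brightest, 225262_at, read 11.80, 11.59 and 11.65 on the siTIG1 arrays, against 10.26, 10.41 and 10.89 on the siControl arrays. Its difference was 1.16 ± 0.16 (SE, limma adjusted p = 0.015), and 1.35 without siControl replicate 3 (limma adjusted p = 1.5e-05). On 225262_at the call was otherwise kept only without siControl replicate 1 (limma adjusted p = 0.046).

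A second FOSL2 probe set, 228188_at, read 9.33, 9.59 and 9.37 on the siTIG1 arrays, against 8.25, 8.33 and 8.54 on the siControl arrays. It rose by 1.06 ± 0.10 (SE, limma adjusted p = 0.0053), and this call held with each single array left out (highest limma adjusted p of 0.044). Another, 218880_at, rose by 0.40 ± 0.08 (SE, limma adjusted p = 0.043), at a dimmer signal, 7.51 ± 0.14 in the siTIG1 group and 7.12 ± 0.03 in the siControl group (SD, n = 3 each). Leaving out any array but siControl replicate 3 ended that call (limma adjusted p of 0.082 to 0.13). The remaining FOSL2 probe sets, 205409_at and 218881_s_at, differed by 0.10 each and did not pass. Their 95% intervals ran from -0.06 to 0.25 and from -0.15 to 0.35, both below the interval of 0.77 to 1.55 for 225262_at. All 5 FOSL2 probe sets had positive differences.

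**Figure D1:**
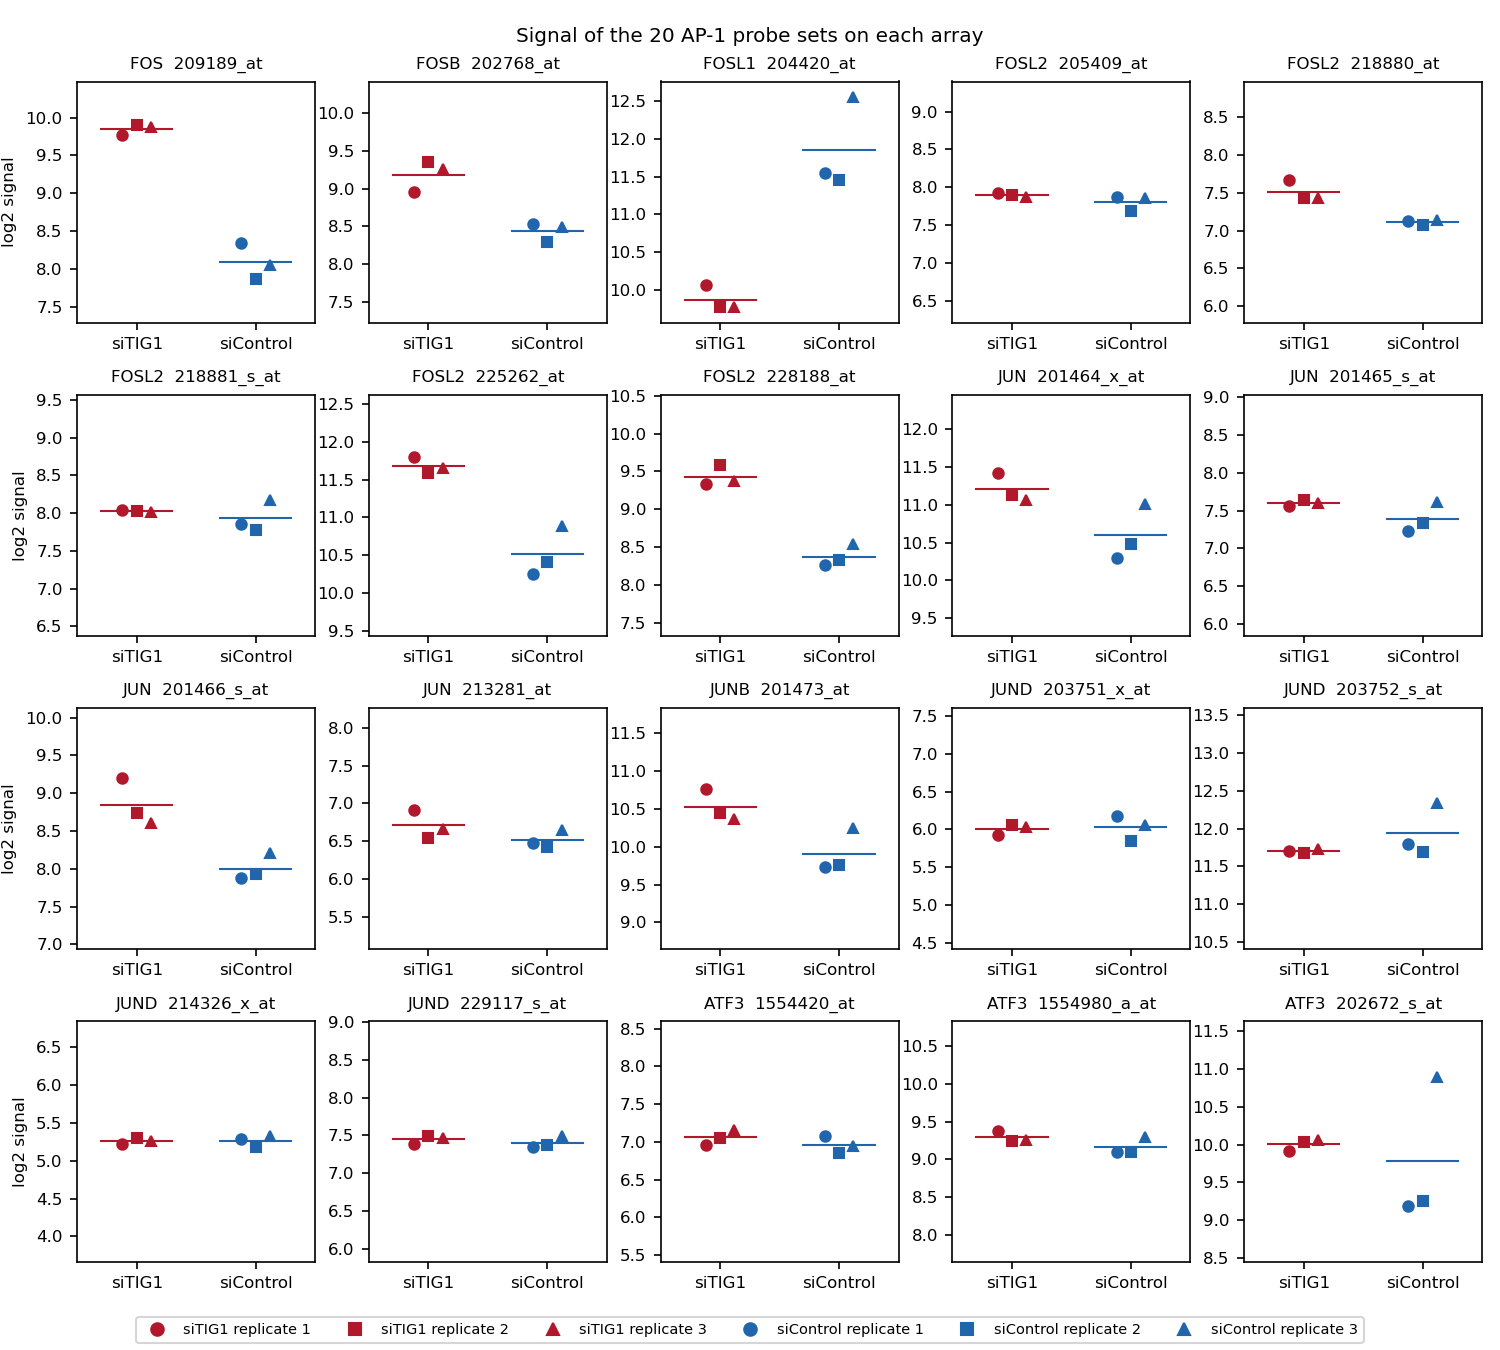
Log2 signal of each of the 20 AP-1 probe sets (1 panel each) on the siTIG1 arrays (red) and siControl arrays (blue); symbols mark replicates, lines the group means, and every panel spans the same number of log2 units. FOS, FOSB and FOSL2 225262_at lay higher on all siTIG1 arrays, FOSL1 lower, and siControl replicate 3 stood far above the other controls for FOSL1 and ATF3 202672_s_at.

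JUN, the main partner of FOS proteins, showed positive differences on all 4 probe sets, of which 201466_s_at passed. Its signal there was 9.20, 8.74 and 8.60 on siTIG1 replicates 1 to 3, against 7.87, 7.93 and 8.20 on siControl replicates 1 to 3. The groups did not overlap, and siTIG1 replicate 1 was the highest array. The difference was 0.85 ± 0.17 (SE, limma adjusted p = 0.042), and 0.95 without siControl replicate 3 (limma adjusted p = 0.0020). Without any other single array the call was lost (limma adjusted p of 0.078 to 0.14), and without siTIG1 replicate 1 the difference was 0.67.

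The brightest JUN probe set, 201464_x_at, whose name marks probes that can bind other transcripts too, read 11.43, 11.13 and 11.07 on the siTIG1 arrays, against 10.30, 10.48 and 11.01 on the siControl arrays. Its difference of 0.61 ± 0.19 (SE) missed the threshold (limma adjusted p = 0.15), with siControl replicate 3 just below the siTIG1 arrays. Without that array it was 0.82 and passed (limma adjusted p = 0.00083). JUN probe sets 201465_s_at and 213281_at were dimmer and differed by 0.20 and 0.19 (limma adjusted p = 0.34 and 0.42). Without siControl replicate 3 the difference of 201465_s_at was 0.31 and passed (limma adjusted p = 0.0059), while 213281_at did not (0.26, limma adjusted p = 0.11).

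JUNB, an immediate-early gene whose protein often activates less strongly than JUN, read 10.76, 10.44 and 10.37 on the siTIG1 arrays, against 9.73, 9.76 and 10.25 on the siControl arrays. The groups did not overlap, but siControl replicate 3 came close to the lowest siTIG1 array. The difference of 0.62 ± 0.17 (SE) missed the threshold (limma adjusted p = 0.10). It was 0.78 ± 0.10 (SE) and passed when siControl replicate 3 was left out (limma adjusted p = 0.00095).

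JUND, the JUN family member with the steadiest expression across cell states, did not pass on any of its 4 probe sets. The brightest, 203752_s_at, read 11.70, 11.67 and 11.72 on the siTIG1 arrays, against 11.79, 11.69 and 12.34 on the siControl arrays. The groups overlapped, and siControl replicate 3 was again the highest. Its difference was -0.24 with a 95% interval of -0.63 to 0.15, and -0.04 with an interval of -0.17 to 0.09 without siControl replicate 3. That second interval leaves out a change as large as that of JUNB. The other JUND probe sets differed by -0.02, -0.0024 and 0.05, at signals of 5.26 to 7.45 in the siTIG1 group and 5.26 to 7.40 in the siControl group, which are not shown to lie above background.

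ATF3, a stress-induced factor of the ATF/CREB family that pairs with JUN proteins, gave a result that 1 array decided. Probe set 202672_s_at read 9.92, 10.04 and 10.06 on the siTIG1 arrays, against 9.19, 9.26 and 10.90 on the siControl arrays. The siTIG1 arrays lay between siControl replicate 3 and the other controls, and the difference was 0.22 ± 0.44 (SE, limma adjusted p = 0.84). With siControl replicate 3 left out it was 0.78 ± 0.06 (SE, limma adjusted p = 7.8e-05), and without siControl replicate 1 or 2 it was -0.07 or -0.04. Probe sets 1554980_a_at and 1554420_at differed by 0.13 and 0.10 with all arrays, and by 0.20 and 0.10 without that array (limma adjusted p = 0.056 and 0.49), so the ATF3 probe sets did not give the same size.

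**Figure D2:**
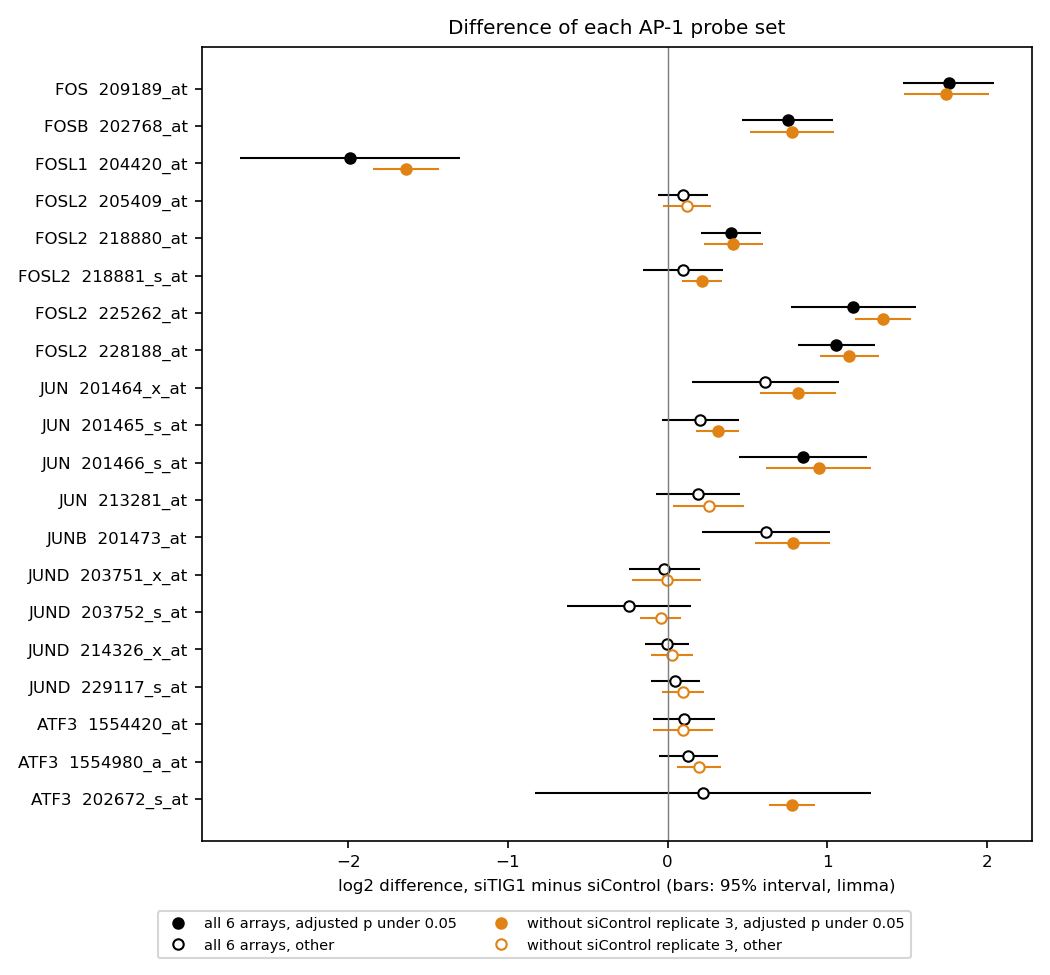
Log2 difference, siTIG1 minus siControl, of each AP-1 probe set with its 95% interval from limma, over all 6 arrays (black) and without siControl replicate 3 (orange); filled points had an adjusted p under 0.05. FOS lay at 1.76 and FOSL1 at -1.99 with all arrays, no JUND probe set passed, and the ATF3 202672_s_at interval narrowed once siControl replicate 3 was left out.

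Without siControl replicate 3, 11 of the 20 member probe sets passed as higher, where 7.87% of all probe sets did, and FOSL1 alone passed as lower, where 11.0% did. The probe sets called only then were JUN 201464_x_at and 201465_s_at, FOSL2 218881_s_at, JUNB and ATF3 202672_s_at. On siControl replicate 3, 15 of the 20 members read above both other controls, or 75%, against 43.1% of all probe sets, with a median gap of 0.22, against 0.01. The gap ran from -0.05 for FOS to 1.67 for ATF3 202672_s_at, so FOS and FOSB (0.08) were little changed on the array where FOSL1, JUNB and ATF3 202672_s_at were high. Leaving out siControl replicate 1 left 4 of the 20 called, where 2.02% of all probe sets were, and leaving out siControl replicate 2 left 3, where 1.65% were. Without siTIG1 replicate 2 or 3, 2 members were called, where 0.599% and 0.623% of all probe sets were. Without the labelled siTIG1 replicate 1 array, 3 member probe sets passed as higher, where 0.672% of all probe sets did, and none as lower, where 0.786% did. These 3 were FOS, FOSB and FOSL2 228188_at. By limma, 9 of the 20 members had an unadjusted p under 0.05 with all 6 arrays, as did 19.1% of all probe sets. Exact 2-sided permutation tests of single probe sets could not go below p = 0.1 with 3 against 3 arrays, and both FOS and FOSL1 had that value.

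The array labelled siTIG1 replicate 1 differed from the other siTIG1 arrays in opposite ways for different subunits. It had the lowest siTIG1 signal of FOS and FOSB and the highest of FOSL1, JUNB, 3 of the 4 JUN probe sets and 4 of the 5 FOSL2 probe sets. Over all 20 probe sets it was highest for 10 and lowest for 9, or 50% and 45%, against 35.1% and 36.1% of all probe sets. For FOS and FOSL1 these gaps were small beside the difference between the groups.

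The balance between subunits was followed as the log2 signal of a gene minus that of FOSL1 on the same array, with 1 probe set per gene, the brightest whose name does not end in x_at. Such a value cannot say which transcript is more abundant, since probe sets differ in brightness, but its shift between groups shows unequal change. FOS minus FOSL1 was -0.29, 0.13 and 0.10 on the siTIG1 arrays, against -3.21, -3.59 and -4.50 on the siControl arrays. The groups were separated by 2.93, and the shift of 3.75 in the means corresponds to a 13.4-fold change of the FOS to FOSL1 signal ratio. Leaving out siControl replicate 3 gave a shift of 3.38, or 10.4-fold.

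FOSL2 minus FOSL1 was 1.74, 1.82 and 1.88 on the siTIG1 arrays, against -1.29, -1.05 and -1.67 on the siControl arrays, a shift of 3.15. Within the siTIG1 group this value had an SD of 0.07, the second smallest of the 7 after that of JUNB, at 0.05. JUN minus FOSL1 was -0.86, -1.02 and -1.17 on the siTIG1 arrays, against -3.68, -3.53 and -4.36 on the siControl arrays, a shift of 2.83. The corresponding shifts were 2.74 for FOSB, 2.60 for JUNB, 2.21 for ATF3 and 1.75 for JUND, less than the fall of FOSL1 alone. For all 7 genes every siTIG1 array lay above every siControl array, by at least 1.40. No test was made of these values, because the fall of FOSL1 enters all of them.

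**Figure D3:**
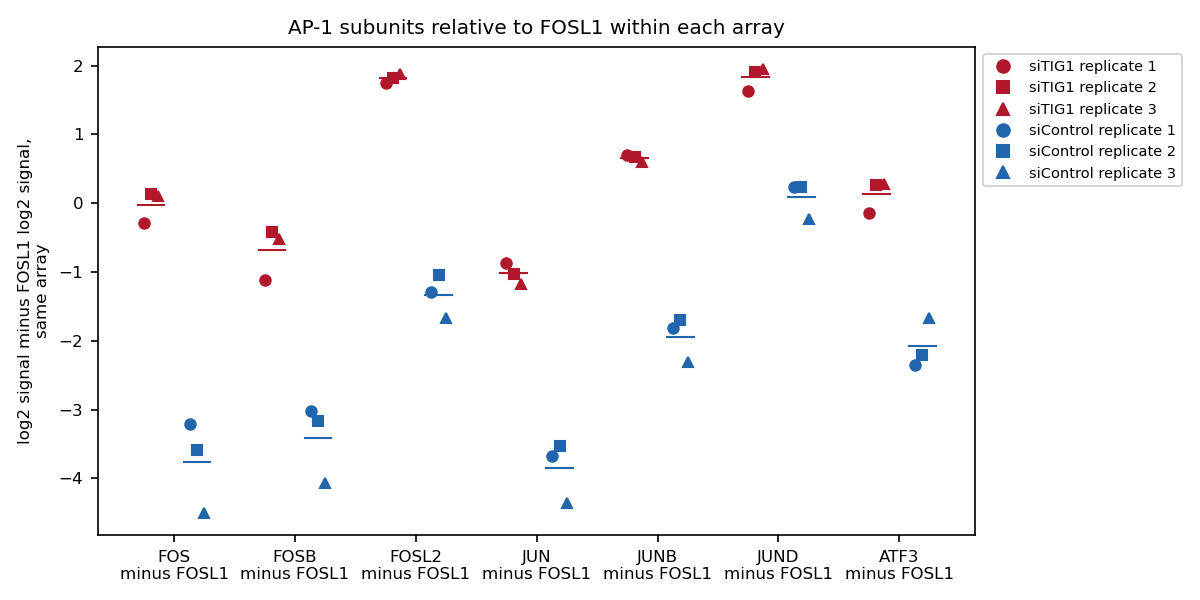
Log2 signal of each AP-1 gene minus that of FOSL1 on the same array, for siTIG1 (red) and siControl (blue) arrays; symbols mark replicates and lines the group means. The distance between red and blue shows the shift, which was 3.75 for FOS and 1.75 for JUND, while heights of different genes cannot be compared.

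The genes whose 6 array values followed those of FOS most closely, among 9888 genes at or above the median level, were PEX6, SUSD6, SNX3, LINC01121 and MFAP2, with Pearson correlations of 0.995 to 0.996. PEX6, a peroxisomal ATPase, differed by 0.67, SNX3, a sorting nexin, by 0.53, and MFAP2, a microfibril protein, by 0.89, against 1.76 for FOS. For FOSL1 the closest were SIGIRR, MMGT1, AMD1, CDCP1 and TTC17, with correlations of 0.9982 to 0.9996. CDCP1, a transmembrane substrate of SRC kinases, read 10.71, 10.61 and 10.55 on the siTIG1 arrays, against 11.67, 11.51 and 12.23 on the siControl arrays, with siControl replicate 3 the highest as for FOSL1. AMD1, an enzyme of polyamine synthesis, differed by only -0.29. These correlations rest on 6 arrays in 2 groups, share those arrays, and are a description.

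Gene lists around AP-1 were counted with 1 probe set per gene over 19775 genes, of which 3.16% passed as higher and 4.14% as lower (limma). The lists were written with earlier results of these data known, so their counts are a description. Of 30 measured genes known as AP-1 targets 5 passed as lower, none as higher and 25 did not pass with all 6 arrays, with a median of -0.06, against 0.02 over all genes. The receptor tyrosine kinase AXL read 10.13, 10.40 and 10.47 on the siTIG1 arrays, against 11.95, 12.03 and 11.79 on the siControl arrays, a difference of -1.59 ± 0.11 (SE, limma adjusted p = 0.0024). LAMB3, a chain of laminin-332, read 11.79, 12.02 and 12.00 on the siTIG1 arrays, against 13.34, 13.30 and 13.75 on the siControl arrays (-1.53 ± 0.14 SE, limma adjusted p = 0.0041). Both were called with each array left out in turn.

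The EGF receptor ligand EREG fell by 1.44 on the log2 scale (limma adjusted p = 0.016), the hyaluronan receptor CD44 by 0.84 (limma adjusted p = 0.013) and the chromatin protein HMGA1 by 0.80 (limma adjusted p = 0.012). Only 1 of 2 probe sets passed as lower for each of EREG, HMGA1 and AXL, and 1 of 13 for CD44. A positive difference was seen on 1 of 2 for HMGA1 and 2 of 13 for CD44. With each of the 6 arrays left out in turn, the call was kept in 4 fits for EREG, 2 for CD44 and 3 for HMGA1 (highest limma adjusted p of 0.090, 0.072 and 0.074). The collagenase gene MMP1, long used as an AP-1 reporter gene, differed by 0.28 (limma adjusted p = 0.11) at 5.37 in the siControl group, a signal not shown to lie above background. The cytokine gene IL24 had the most negative difference of the list, -1.73, but read 8.11, 8.06 and 8.07 on the siTIG1 arrays, against 8.21, 8.08 and 13.12 on the siControl arrays. Leaving out siControl replicate 3 brought the IL24 difference to -0.07. Without that array 12 targets passed as lower and 6 as higher, where 14.8% and 12.2% of all genes did. Leaving out any other single array left 2 to 5 lower and none higher. Over all probe sets, the fits without 1 of these other arrays called 0.599% to 2.02% in either direction.

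**Figure D4:**
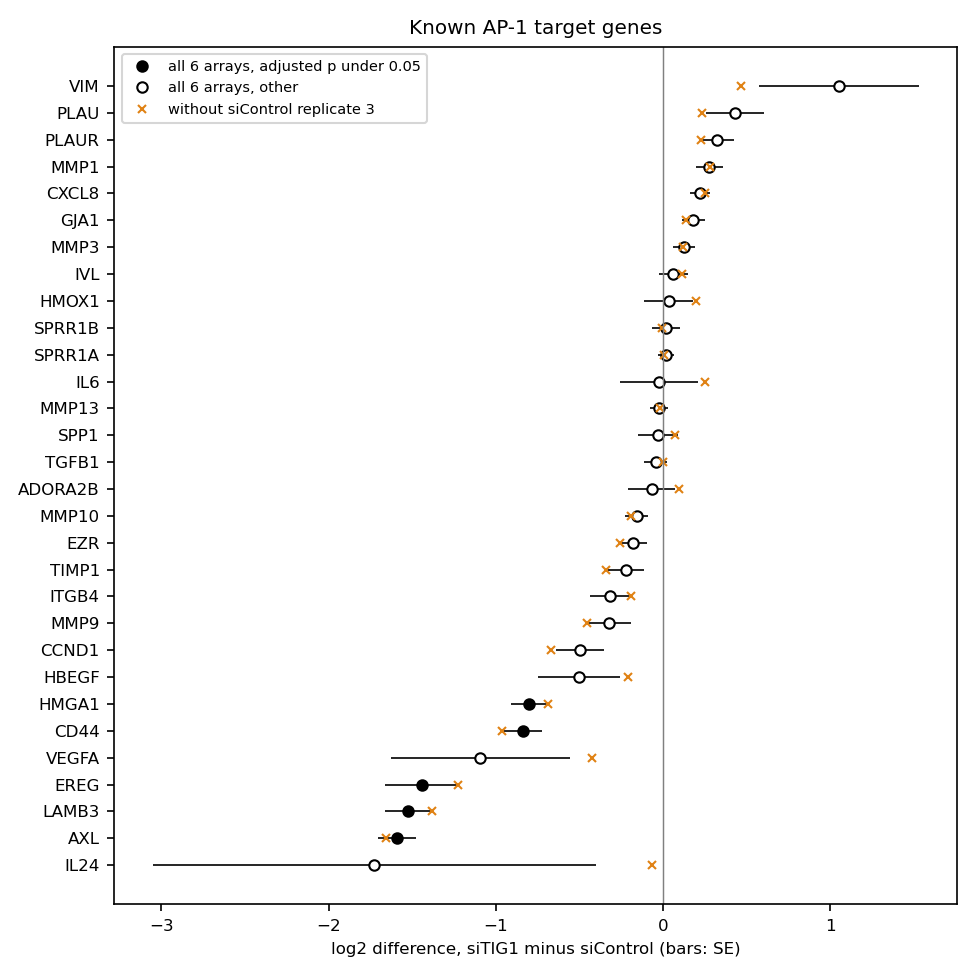
Log2 difference, siTIG1 minus siControl, of the 30 measured genes known as AP-1 targets, with the standard error from limma, over all 6 arrays (black, filled where the adjusted p was under 0.05) and without siControl replicate 3 (orange crosses). AXL, LAMB3, EREG, CD44 and HMGA1 passed as lower, and the wide bar of IL24 goes with its high reading on siControl replicate 3.

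Upstream of AP-1, 1 of 23 measured kinase genes rose, 1 fell and 21 did not pass, with a median of -0.07. These counts lay near the shares over all genes, of which 3.16% passed as higher and 4.14% as lower. MAPK8, which encodes the JUN kinase JNK1, read 9.71, 9.43 and 9.49 on the siTIG1 arrays, against 10.21, 10.25 and 10.43 on the siControl arrays (-0.75 ± 0.10 SE, limma adjusted p = 0.011). Of its 5 probe sets 2 passed as lower and the others had negative differences, and the call was lost without siTIG1 replicate 2 or 3. MAP2K6, a kinase that activates p38, read 10.80, 10.82 and 10.84 on the siTIG1 arrays, against 9.49, 9.45 and 8.03 on the siControl arrays. Its rise of 1.83 ± 0.39 (SE, limma adjusted p = 0.042) became 1.35 without siControl replicate 3 (limma adjusted p = 7.1e-07) and was not called without any other single array (limma adjusted p of 0.066 to 0.17). Without siControl replicate 3, 2 kinase genes passed as higher and 5 as lower, where 12.2% and 14.8% of all genes did.

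Among 11 measured factors that act on the FOS and JUN promoters, STAT3 rose by 0.57 ± 0.08 (SE, limma adjusted p = 0.016) and 10 did not pass, SRF among them. STAT3 was called without siControl replicate 2, siControl replicate 3 or siTIG1 replicate 1, and lost without the others. Of 19 genes for turnover of AP-1 transcripts and proteins, the decapping enzyme gene DCP2 rose by 0.63 ± 0.08 (SE, limma adjusted p = 0.0098), the ubiquitin ligase scaffold gene CUL4A fell by 0.46 on the log2 scale (limma adjusted p = 0.027) and 17 did not pass. In the same fit with all arrays, 3.16% of all genes passed as higher and 4.14% as lower. Leaving out siTIG1 replicate 2 or 3 ended the DCP2 call, and leaving out any array but siControl replicate 3 ended that of CUL4A. Of their probe sets 2 of 4 for DCP2 passed as higher and 1 of 4 for CUL4A as lower. For STAT3, 3 of 4 passed as higher. A negative difference was seen on 1 of 4 for each of DCP2 and STAT3. With siControl replicate 3 left out, 2 promoter factors passed as higher and 1 as lower, and 5 turnover genes as higher and 2 as lower, in a fit that called 12.2% of all genes higher and 14.8% lower.

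None of 26 other measured genes of the same bZIP protein class passed with all arrays by limma, although 6 had an unadjusted p under 0.05, as did 21.9% of all genes, and the median was -0.02. The nearest was MAFF, a small MAF protein gene, at -0.59 (limma adjusted p = 0.051). Without siControl replicate 3, 7 of these genes passed as higher and 6 as lower, against 12.2% and 14.8% of all genes, and without any other single array none did. Of 26 other measured immediate-early genes 2 rose and 24 did not pass, with a median of 0.09. With all 6 arrays 3.16% of all genes passed as higher and 4.14% as lower. EGR1, a zinc finger factor, read 13.60, 13.61 and 13.49 on the siTIG1 arrays, against 10.98, 11.00 and 10.37 on the siControl arrays, a rise of 2.79 (limma adjusted p = 0.0020). CCN2, a matricellular protein gene, rose by 1.10 (limma adjusted p = 0.014), a call lost without siTIG1 replicate 1, 2 or 3. With siControl replicate 3 left out, 10 of the 26 passed as higher and 2 as lower, against the same 12.2% and 14.8%.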

How the data were processed

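Labelled cRNA of each sample was hybridised to 1 of 6 Affymetrix HG-U133 Plus arrays, per the labels' protocols. The authors deposited 1 value per probe set and array. These were taken as log2 signals from their range of 4.28 to 15.59, and the submitters' processing notes name MAS5 and RMA without saying which made them. Array medians of 7.87 to 7.90 show that the deposited log2 values were already normalized between arrays, so they were used as they are, and a change shared by most genes would not show. They carry no detection call, so low signals have no stated floor. Of 54675 probe sets, 62 controls were left out. Symbols were updated by gene number through the RefSeq table of GRCh38.p14, which held 19735 of 19775 genes.

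Groups and replicate numbers came from the sample titles. Linear models of limma 3.58.1 (R 4.3.3; lmFit, then eBayes; 2-sided, no block) compared the groups, with Benjamini-Hochberg adjustment over 54613 probe sets, or over 19775 genes for the gene lists, and a threshold of 0.05. The method was tested on simulated data with known changes, which held no deviating array such as siControl replicate 3. The members and lists were chosen with earlier results of these data known. Named were all member probe sets, TIG1, up to 5 called genes of each list by p and direction, and the 5 genes most correlated with FOS and with FOSL1; MMP1, IL24, MAFF and SRF were chosen after their values were seen. List genes without a probe set of 1 symbol were not analysed here. The alternatives were other normalizations, a filter on dim probe sets, 1 probe set per gene, a trended robust variance, array weights, a replicate block and leaving out each array. The number of arrays limits the precision.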

Additional observations from a re-analysis of the deposited data

How the results depend on the processing

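The main comparison called 2737 probe sets, 7 of them members. With each array left out in turn the counts ran from 327 to 10324 probe sets and from 2 to 12 members, the highest without siControl replicate 3. Array weights, which gave that array a weight of 0.16 against 1.10 to 1.81 for the others, called 8925 probe sets and 11 members, and 1 probe set per gene called 1442 genes. Same-numbered arrays of the groups did not deviate together (correlations of -0.04, -0.01 and -0.01). These values cannot exclude pairing, because siControl replicate 3 weighs heavily in the deviations of its group. With the replicate block 478 probe sets and 2 members (FOS and FOSL2 228188_at) were called. Quantile normalization, median centring and the trended robust variance each called 7 members, and the filter on dim probe sets called 6 of the 12 that passed it. Over all alternatives the 7 called members kept their direction, and lost the call in 26 of 88 refits. Signs reversed only for members near 0 or with 1 deviating array. With an array left out, ATF3 202672_s_at ran from -0.073 to 0.78, JUND 203751_x_at from -0.11 to 0.058 and JUND 214326_x_at from -0.041 to 0.027, with 0.020 for the last under array weights. The FOS minus FOSL1 shift ran from 3.38 to 4.03 and the JUN minus FOSL1 shift from 2.58 to 2.99 with an array left out. The causes of these changes were not tested. With no detection call, differences of dim probe sets may be too small.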
